A study of Mus musculus with 4 samples.

Results

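The genes described here are 10 members of the Notch pathway: the receptors Notch1, Notch2 and Notch3, the ligands Jag1, Jag2 and Dll1, the nuclear effector Rbpj, and the target genes Hes1, Hey1 and Hey2. They were taken by gene symbol from a table of 55401 genes, where each symbol matched 1 row, and 8 of the 10 had enough counts to be tested. The table holds RNA-seq of hair follicle stem cells of C57BL/6 mice in anagen, when hair actively grows. These mice received a normal diet (2 libraries) or a high-fat diet for 4 months (2 libraries). The labels do not state age, sex, how cells were isolated or whether libraries came from separate animals, and p-values measure only how much these libraries scatter, which can be technical.

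Notch signalling passes between touching cells. A Jagged or Delta-like ligand on one cell binds a Notch receptor on its neighbour, proteases then release the receptor's intracellular part, and this part enters the nucleus and joins the DNA-binding protein RBPJ to switch on genes of the Hes and Hey families, which encode transcriptional repressors. In skin the pathway is known for its role in the commitment of epidermal cells to differentiate as they leave the basal layer, and for its role in maintaining the hair follicle.

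Total counts lay between 8590570 and 9940848 per library, and 3 counts in a library, the limit that a count of 0 allows, were worth 0.291 to 0.358 CPM (counts scaled to depth and by TMM for composition). The limit covers counting error only. The libraries of a diet differed by more than sampling noise, with a ratio of chi-square to degrees of freedom of 13.9 for the normal diet and 6.53 for the high-fat diet. The bulge stem cell markers Krt15, a keratin, and Cd34, a surface protein, were both present, at a mean of 1506 and 9.93 FPKM (fragments scaled by exonic length and depth). Across all 14479 genes tested, 195 were called between the diets by edgeR's quasi-likelihood test at an adjusted p under 0.05, which is 1.35%. Of these, 162 were higher and 33 lower on high-fat diet. Scaling to equal sums of TPM gave 88 higher and 3 lower, and scaling to library totals 132 higher and 65 lower.

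None of the 8 tested members was called between the diets by edgeR at an adjusted p under 0.05. At an unadjusted p under 0.05 there were 3, the receptor Notch3, the ligand Dll1 and the target Hes1, against 13.3% of all genes. For the same 3 genes no library of one diet lay within the values of the other, higher on high-fat diet for Notch3 and Dll1 (2 genes, where 22.7% of all genes tested were separated that way) and lower for Hes1 (1 gene, against 21.9%). Separation in either direction occurred in 44.6% of all genes tested. DESeq2 called 1 member, Notch3, where it called 2.69% of all genes. The count with limma on log2(FPKM + 1) was 0, where it called 2 genes in all. The median log2 fold change of the 8 genes was 0.08, against 0.0018 for all genes tested. The main receptor, Notch1, and the Jagged ligands stood at close levels with both diets.

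Per length of transcript, the Jagged ligands were the most abundant members. Jag1 had a mean of 41.1 FPKM over the 4 libraries and Jag2 one of 35.2 FPKM, and every library of Jag1 stood above every library of Jag2. Hes1 followed with 29.2 FPKM and Notch1 with 28.6 FPKM, and these did not differ beyond their spread. Hes1 reached 37.3 FPKM in the second normal diet library, which also overlapped the values of Jag2. Notch2 stood at 11.4 FPKM. Below it lay Notch3 at 4.63 FPKM, Dll1 at 3.36 FPKM and Rbpj at 3.34 FPKM, which overlapped one another. Hey1 and Hey2 were near the limit of detection, at 0.18 and 0.03 FPKM.

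**Figure D1:**
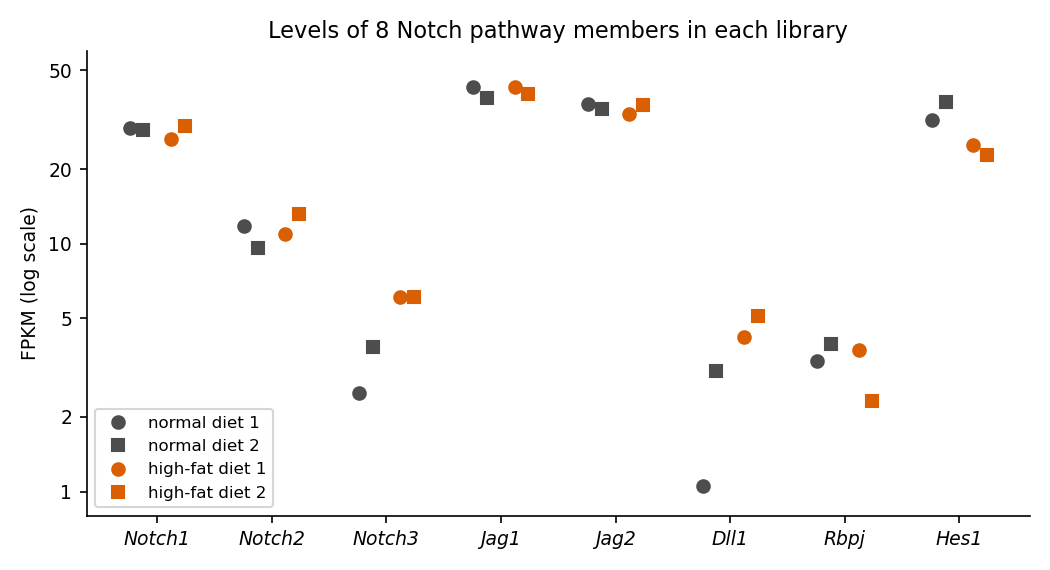
Level of the 8 tested members in each of the 4 libraries, in FPKM on a log axis. Grey marks are normal diet and orange marks high-fat libraries, with circles for the first and squares for the second library. Notch3 and Dll1 sit higher and Hes1 lower on high-fat diet without overlap, and Notch1, Jag1 and Jag2 lie close together. Hey1 and Hey2 are not drawn because Hey2 is at 0 in 2 libraries.

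Notch1, the receptor gene on chromosome 2 (positions 26457903 to 26516663 of mouse build GRCm38, minus strand), had 29.2 and 28.9 FPKM on normal diet and 26.5 and 29.8 FPKM on high-fat diet. The high-fat libraries lay on either side of the normal diet libraries. The log2 fold change was 0.04 with a 95% interval from -0.22 to 0.30, that is a fold between 0.86 and 1.23 (edgeR adjusted p = 0.934). The sign of this value turned with scaling and with the library left out.

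Notch2 (chromosome 3, positions 98013527 to 98150361) had 11.8 and 9.57 FPKM on normal diet and 10.9 and 13.2 FPKM on high-fat diet. The diets overlapped, and its log2 fold change of 0.26 had a 95% interval from -0.07 to 0.59 (edgeR adjusted p = 0.50). A pair of unnamed gene models on the same strand, Gm42819 and Gm42820, overlap its span. Gm42819 had 14 and 46 counts on normal diet and 12 and 80 on high-fat diet, and Gm42820 had 14 to 17 per library. These are few beside the 967 to 1263 counts of Notch2 per library.

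Notch3 (chromosome 17, positions 32120820 to 32166852, minus strand) is the receptor best known from the smooth muscle of arteries and is also made in suprabasal epidermis. It had 201 and 290 counts on normal diet and 431 and 422 on high-fat diet, or 2.50 and 3.83 against 6.10 and 6.07 FPKM. The high-fat libraries were nearly equal, and the first normal diet library was the lowest of all. Scaled by TMM, the gene stood at 24.9 ± 7.64 CPM on normal diet and 50.7 ± 0.58 CPM on high-fat diet (SD, n = 2), a ratio of 2.04. The log2 fold change was 1.03 (SE 0.22), with a 95% interval, not adjusted for the number of genes, from 0.54 to 1.52. It missed the threshold by little (edgeR adjusted p = 0.051). The side of the threshold depended on the processing: the adjusted p was 0.0071 with DESeq2, 0.025 in edgeR on genes averaging at least 1 FPKM, 0.049 with upper quartile scaling and 2.57e-04 without a count filter, and it was 0.238 with limma on log2(FPKM + 1). The fit without a count filter called 633 of 24790 genes, against 195 of 14479 in the main fit. Leaving out the first normal diet library gave a log2 fold change of 0.75 and leaving out the second one of 1.38, and leaving out any 1 library gave an adjusted p of 0.139 or more.

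The share of Notch3 in the summed FPKM of the 3 receptors was 5.74% and 9.06% on normal diet and 14.0% and 12.4% on high-fat diet. The share of Notch1 was 67.2% and 68.3% against 60.9% and 60.7%. Both shares separated the diets, and an exact permutation test could not go below a two-sided p of 0.33 with 2 libraries against 2. The summed level of the receptors was 43.5 and 42.3 FPKM on normal diet and 43.5 and 49.1 FPKM on high-fat diet.

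**Figure D2:**
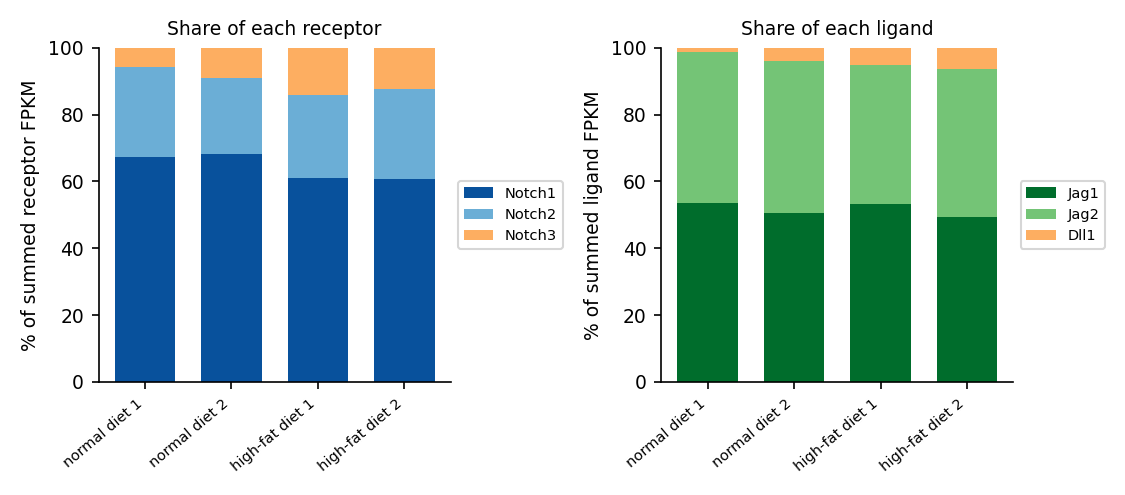
Share of each receptor in the summed FPKM of Notch1, Notch2 and Notch3 (left) and of each ligand in the summed FPKM of Jag1, Jag2 and Dll1 (right), in percent, for each library. The band of Notch3 widens from 5.74% and 9.06% on normal diet to 14.0% and 12.4% on high-fat diet, and Jag1 and Jag2 together make up nearly all ligand signal in every library.

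Among the ligands, Jag1 (chromosome 2, positions 137081456 to 137116644) had 43.0 and 38.8 FPKM on normal diet and 42.7 and 40.1 FPKM on high-fat diet. Jag2 (chromosome 12, positions 112907819 to 112929776) had 36.5 and 34.8 FPKM against 33.4 and 36.1 FPKM. For both genes the diets overlapped. Their log2 fold changes were 0.10 and 0.05, with 95% intervals from -0.17 to 0.37 and from -0.21 to 0.32, so folds above 1.30 lay outside the interval for Jag1 and above 1.24 for Jag2. The ratio of Jag1 to Jag2 ranged from 1.12 to 1.18 on normal diet and from 1.11 to 1.28 on high-fat diet.

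Dll1 (chromosome 17, positions 15367354 to 15376872), a Delta-like ligand, was the scarce ligand and the member with the largest fold change of those tested. It had 44 and 121 counts on normal diet and 155 and 185 on high-fat diet, or 1.05 and 3.06 against 4.21 and 5.10 FPKM. The first normal diet library stood apart from the other three. In CPM the means were 8.45 ± 5.92 and 20.2 ± 2.60 (SD, n = 2), a ratio of 2.39, and the log2 fold change was 1.26 (SE 0.42), which did not pass (edgeR adjusted p = 0.209). Without the first normal diet library the log2 fold change was 0.68, and without the second it was 2.24, with adjusted p of 0.495 and 0.141. Without a count filter edgeR called it (adjusted p = 0.0070), in a fit that called 633 of 24790 genes. Its share of the summed ligand FPKM was 1.30% and 3.99% against 5.24% and 6.27%.

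Rbpj (chromosome 5, positions 53466152 to 53657362), through which all canonical Notch signals reach DNA, had 3.35 and 3.95 FPKM on normal diet and 3.74 and 2.31 FPKM on high-fat diet. The second high-fat library was the lowest, with 253 counts against 417 to 472 in the others. The log2 fold change of -0.18 had a 95% interval from -0.69 to 0.33 (edgeR adjusted p = 0.806), and without that library it was 0.13. The level of Rbpj is uncertain for another reason, since the pseudogene Rbpj-ps3 took 115, 50, 56 and 58 counts in the first and second normal diet and the first and second high-fat libraries, and reads shared by such copies could have been counted at either. Its FPKM rests on a deposited exonic size of 12750 bases.

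Hes1 (chromosome 16, positions 30064384 to 30067796), a repressor of the basic helix-loop-helix family and the best known direct Notch target, was by far the highest of the Hes and Hey genes, since the next, Hes6, had between 1.34 and 2.66 FPKM. It had 639 and 712 counts on normal diet and 446 and 400 on high-fat diet, or 31.6 and 37.3 against 25.1 and 22.9 FPKM. Both high-fat libraries stood below both normal diet libraries. The means were 68.1 ± 8.79 and 50.3 ± 3.69 CPM (SD, n = 2), a ratio of 0.74, and the log2 fold change of -0.44 (SE 0.17) did not pass (edgeR adjusted p = 0.276). It was negative with every library left out in turn, from -0.56 to -0.30, and passed in none of the alternatives run.

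**Figure D3:**
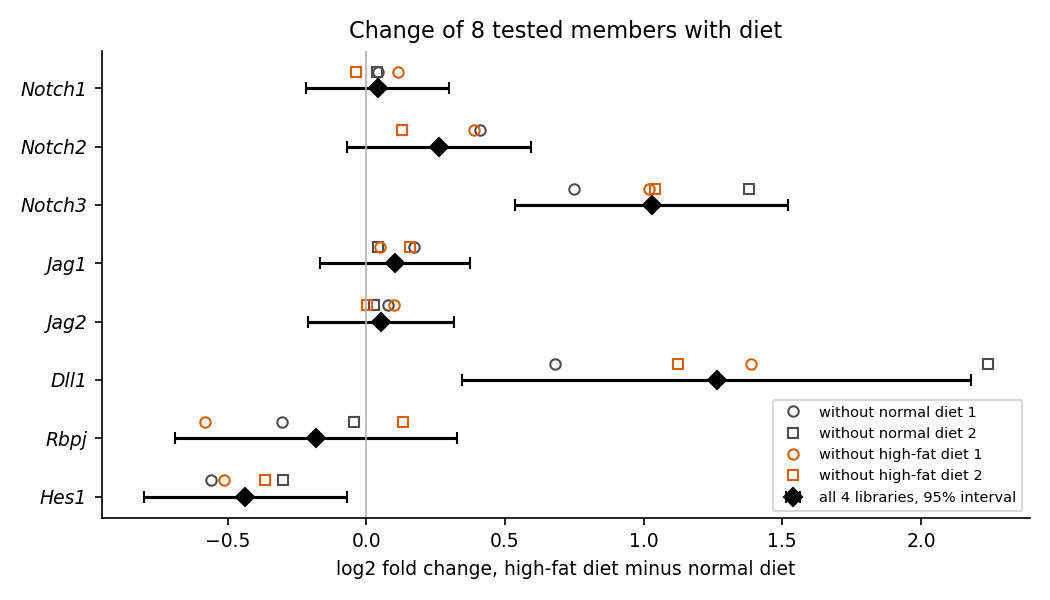
Log2 fold change of the 8 tested members, high-fat diet minus normal diet, with the 95% interval from edgeR (black) and the value without each library in turn (open marks, grey for a normal diet and orange for a high-fat library left out). Notch3 and Dll1 lie to the right of 0 and Hes1 to the left whichever library is left out, and the values of Dll1 reach from 0.68 to 2.24, both with a normal diet library left out.

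Hey1 and Hey2 encode repressors related to Hes1 that are best known from blood vessels and heart. Hey1 (chromosome 3, positions 8663359 to 8667256) had 1 and 4 counts on normal diet and 7 and 8 on high-fat diet, 20 counts in all, with both high-fat libraries higher. Of all genes tested, 22.7% were separated that way. Hey2 (chromosome 10, positions 30832359 to 30842801) had 4 and 0 counts against 0 and 1. Both were below the filter on low counts and were not tested, and at these counts a difference in either gene could not be judged.

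The promoters of 2 target genes that were almost silent here are shown because they hold the letters that RBPJ is known to bind. Promoter windows, 250 bases before to 50 after a transcription start, came from RefSeq on build GRCm38.p6. They were matched by symbol for 8 of the 10 members, all except Hes1 and Hey1. The core GTGGGAA was searched on both strands, where the other strand reads TTCCCAC, and was found in 6.38% of 32851 windows of all genes. Among the 8 members with a window, 1 held it, Hey2, with 2 matches that begin 207 and 4 bases before the start (chr10:30842734-30843033, minus strand). Hes5, a Hes gene that is a Notch target in the nervous system, also held 2, beginning 226 and 83 bases before the start (chr4:154960673-154960972, plus strand), and had 0 counts in all 4 libraries. Nrarp, the other target outside the 10 genes that was searched, held none and was well expressed. The window of Notch3 (chr17:32166841-32167140, minus strand), the member nearest to the threshold, held none. Capitals mark the core on either strand.
Hey2: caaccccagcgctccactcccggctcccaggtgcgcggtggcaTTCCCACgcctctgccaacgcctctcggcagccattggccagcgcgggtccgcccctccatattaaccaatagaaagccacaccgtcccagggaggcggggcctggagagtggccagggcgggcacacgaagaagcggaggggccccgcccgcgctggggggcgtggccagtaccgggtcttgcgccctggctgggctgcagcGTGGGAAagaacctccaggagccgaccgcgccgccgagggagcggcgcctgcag
Hes5: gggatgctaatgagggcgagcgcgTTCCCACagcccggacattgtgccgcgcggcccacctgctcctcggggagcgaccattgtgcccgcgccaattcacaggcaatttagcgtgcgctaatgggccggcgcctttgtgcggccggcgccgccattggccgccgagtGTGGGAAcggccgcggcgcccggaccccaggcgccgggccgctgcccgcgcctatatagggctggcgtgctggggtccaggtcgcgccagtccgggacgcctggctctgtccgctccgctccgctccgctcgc
Notch3: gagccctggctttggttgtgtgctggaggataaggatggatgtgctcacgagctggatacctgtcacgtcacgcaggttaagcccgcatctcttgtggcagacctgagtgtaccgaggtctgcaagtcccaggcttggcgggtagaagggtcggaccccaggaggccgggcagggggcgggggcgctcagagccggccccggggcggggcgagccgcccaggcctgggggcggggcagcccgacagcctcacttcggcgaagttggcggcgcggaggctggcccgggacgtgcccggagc
A match describes the letters in the window and not a bound site, and the E-box CACGTG, a sequence bound by Hey proteins, was in no member's window, once in that of Nrarp, and in 7.15% of all windows.

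Summed markers of some other cells were also higher on high-fat diet. Of the 7 suprabasal epidermal markers 3 were called higher (Krt10, Krtdap and Dsg1a), beside 1.12% of all genes tested. The 7 summed to 1159 and 2666 CPM on normal diet and 3945 and 4890 CPM on high-fat diet. The order of this sum over the libraries was that of Dll1. The summed endothelial and hair matrix markers given below had the same order. Notch3 departed from it only in its high-fat libraries, which were nearly equal at 51.1 and 50.3 CPM. The share of all genes with this order was not counted, and a link with any of these markers was not tested. None of the 7 suprabasal markers was at 0. The 9 bulge markers did not go one way. They summed to 14245 and 16236 against 20094 and 18647 CPM, most of it from the keratins Krt5, Krt14 and Krt15, and 1 was called, Krt14, a keratin of all basal keratinocytes, which was higher. The diets were separated for all 9, beside 44.6% of all genes tested. Of the 9, 4 were higher and 5 lower (Cd34, Sox9, Lgr5, Nfatc1 and Lhx2), and the median log2 fold change was -0.13. Of the 5, Lhx2, a transcription factor of follicle stem cells, was nearest to the threshold at -0.49 ± 0.12 (SE, edgeR adjusted p = 0.074). The 8 endothelial markers summed to 11.3 and 13.2 against 19.6 and 24.1 CPM, and the defining genes Pecam1 and Cdh5 stood at or below 1.46 FPKM in every library. The 8 markers of mural cells summed to 497 and 526 against 530 and 478 CPM. Nearly all of that was Cspg4, which had a mean of 41.0 FPKM, and without it the other 7 summed to 12.9 and 13.2 against 23.1 and 25.5 CPM, with the defining Rgs5 and Pdgfrb at or below 0.48 FPKM. The 7 fibroblast markers summed to 44.8 and 56.4 against 80.5 and 64.5 CPM, with Corin, a marker of the dermal papilla, at 0. None of the endothelial, mural and fibroblast markers was called (edgeR), and the diets were separated, with high-fat diet higher, for 4 of 5 tested endothelial, 5 of 7 tested mural and 4 of 6 tested fibroblast markers, beside 22.7% of all genes tested. The part of these cells in the values of Notch3 and Dll1 was not tested, and in such bulk samples fewer cells of a type and less RNA per cell cannot be told apart. The 10 markers of hair matrix and inner root sheath, where Notch1 is known to act, summed to 166 and 223 against 236 and 265 CPM. Most of that was Gata3, and without it the other 9 summed to 51.0 and 65.3 against 55.7 and 63.3 CPM, which overlapped. The 8 haematopoietic markers summed to 9.78 and 26.5 against 25.3 and 39.6 CPM, and the 6 melanocyte markers to 48 and 28 against 36.4 and 29.3 CPM.

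**Figure D4:**
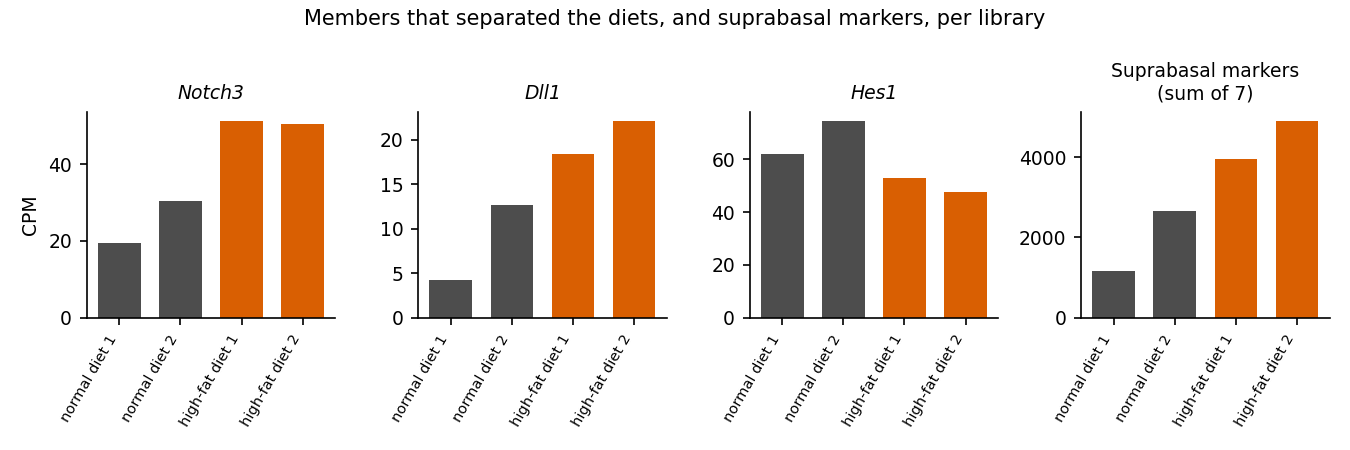
Level in each library, in CPM, of the 3 tested members whose values did not overlap between the diets, Notch3, Dll1 and Hes1, and the summed level of 7 suprabasal epidermal markers. Each panel has its own axis from 0, and each bar is 1 library. The first normal diet library is lowest for Notch3, Dll1 and the suprabasal markers, whereas Hes1 is lowest in the second high-fat library.

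Genes that the literature on keratinocytes links with Notch went in part with the suprabasal markers, to which Krt1, Krt10 and Ivl also belong. Of 6 such genes 1 was called, beside 1.35% of all genes tested. This was Krt10, the keratin of spinous cells. It had 547 and 1155 CPM on normal diet and 1800 and 2361 CPM on high-fat diet (edgeR adjusted p = 0.040). Its call was lost with DESeq2 (adjusted p = 0.281) and with limma at either pseudocount (0.220 and 0.238), where limma called only 2 genes in all. It was also lost without either normal diet library or the second high-fat library, in fits that called fewer genes over the whole table. The log2 fold change was 1.29, and it became 0.85 when the first normal diet library was left out and 1.92 when the second was. Cdkn1a, the cell cycle inhibitor p21, had 5.80 and 7.36 against 9.76 and 11.3 FPKM. The diets did not overlap, and its log2 fold change of 0.76 (SE 0.22) did not pass (edgeR adjusted p = 0.131). Krt1, the partner of Krt10, and Ivl, which encodes involucrin, had log2 fold changes of 1.17 and 0.89 with 95% intervals from 0.27 to 2.07 and from 0.16 to 1.62, and neither passed (edgeR adjusted p = 0.236 and 0.263). Dropping the first normal diet library gave 0.51 for Krt1 and 0.41 for Ivl, and dropping the second gave 2.41 and 1.62. Without a count filter edgeR called Krt1, Ivl and Cdkn1a (adjusted p = 1.08e-20, 0.019 and 0.049). That fit called 633 of 24790 genes. Krt1 had 298 and 1118 CPM on normal diet, a spread that so small a p-value does not reflect. Trp63, the master regulator of the basal layer, had a log2 fold change of -0.0078 (95% interval -0.24 to 0.23).

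The rest of the pathway was followed with 58 other genes in 8 groups by role, of which 48 were tested. None was called by edgeR, DESeq2 or limma on log2(FPKM + 1). Over all 14479 genes tested edgeR called 1.35%, DESeq2 2.69% and limma 2 genes, so 0 of 48 is near those shares. At an unadjusted p under 0.05 there were 7 of the 48 (edgeR), 3 higher and 4 lower, beside the 13.3% of all genes given above. The median log2 fold change of the 48 was 0.06, with 29 positive and 19 negative values, beside 7257 positive and 7222 negative over all genes tested. Scaling to library totals put the median of all genes at -0.085, so values near 0 can change sign with the scaling. The 10 genes too low to test were the receptor Notch4, the ligands Dll3, Dll4 and Dlk1, the targets Hes2, Hes3, Hes5 and Hes7, the glycosyltransferase Mfng and the ubiquitin ligase Dtx1. Of these, Hes2, Hes3, Hes5 and Hes7 had 0 counts in every library. Notch4, known from endothelium, had 0 and 19 counts on normal diet and 3 and 4 on high-fat diet.

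The only tested gene among the other ligands was Dlk2, which encodes a Delta-like protein without the domain that activates receptors. It had 29 and 32 counts on normal diet and 76 and 59 on high-fat diet, and both high-fat libraries stood higher. Its log2 fold change of 1.38 (SE 0.46) did not pass (edgeR adjusted p = 0.209). Nrarp, a target gene whose product limits Notch signalling, was the most abundant of the other targets at a mean of 21.0 FPKM. Its 458 and 527 counts on normal diet and 491 and 505 on high-fat diet gave a log2 fold change of 0.25 (95% interval -0.12 to 0.63), so that Nrarp and Hes1 had values of opposite sign, neither past the threshold. Heyl had 90 counts in the first normal diet library and 8, 4 and 20 in the others. Its log2 fold change of -1.74 rested on that library and was 0.77 without it.

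The 9 genes of the enzymes that cut the receptor all passed the count filter, Aph1c with a mean of only 0.26 FPKM, and none was called (edgeR; 0 also at an unadjusted p under 0.05). Their log2 fold changes had a median of 0.27, with 7 positive and 2 negative. Adam10, the protease that sheds the outer part of the receptor, was the most abundant at 22.3 FPKM, with a log2 fold change of 0.19 (95% interval -0.17 to 0.55). Aph1b, a subunit of gamma-secretase, had 0.67 (-0.0047 to 1.35). The value of Aph1b is uncertain, since Aph1c is a near-identical copy. The 5 tested glycosyltransferases, which tune the ligands that a receptor binds, had a median of -0.07. Of these Lfng, the lunatic fringe gene, stood at 36.2 FPKM. It had 42.9 and 40.5 FPKM on normal diet and 33.5 and 28.1 FPKM on high-fat diet, without overlap, and the log2 fold change of -0.35 ± 0.15 (SE) missed the threshold (edgeR adjusted p = 0.334). Poglut1 had one of -0.20, which became 0.025 when the second high-fat library was left out.

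The 4 ubiquitin ligases that activate ligands had a median log2 fold change of -0.21. Mib1 was the most abundant at 18.3 FPKM, with a log2 fold change of 0.20 (95% interval -0.06 to 0.47). Neurl1b had 15.4 and 11.3 against 9.84 and 9.03 FPKM, lower in both high-fat libraries, with a log2 fold change of -0.41 ± 0.17 (SE, edgeR adjusted p = 0.329). The 8 coactivators, which join RBPJ at active genes, had a median of 0.12 with TMM scaling, and 7 of the 8 were positive there. Crebbp was the most abundant of them at 25.4 FPKM and had a log2 fold change of 0.16 (-0.10 to 0.41). Maml3, a Mastermind-like gene, had 0.43 ± 0.18 and Kat2a, a histone acetyltransferase, -0.45 ± 0.16 (SE), at edgeR adjusted p-values of 0.321 and 0.241.

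The 11 corepressors had a median log2 fold change of -0.14, with 4 positive and 7 negative. Hdac1, a histone deacetylase, had 21.3 and 16.0 FPKM on normal diet and 11.3 and 14.3 FPKM on high-fat diet. Its log2 fold change of -0.46 (SE 0.19) did not pass (edgeR adjusted p = 0.325). The 7 tested genes of receptor endocytosis and turnover had a median of 0.19. Numb, an inhibitor of Notch, stood at 11.4 FPKM with a log2 fold change of 0.23 (-0.15 to 0.61). The Deltex genes Dtx4 and Dtx2 had values of 1.15 ± 0.42 and 0.42 ± 0.21 (SE), at edgeR adjusted p-values of 0.252 and 0.425, and Dtx4 was low, with 38 and 60 counts against 111 and 74.

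**Figure D5:**
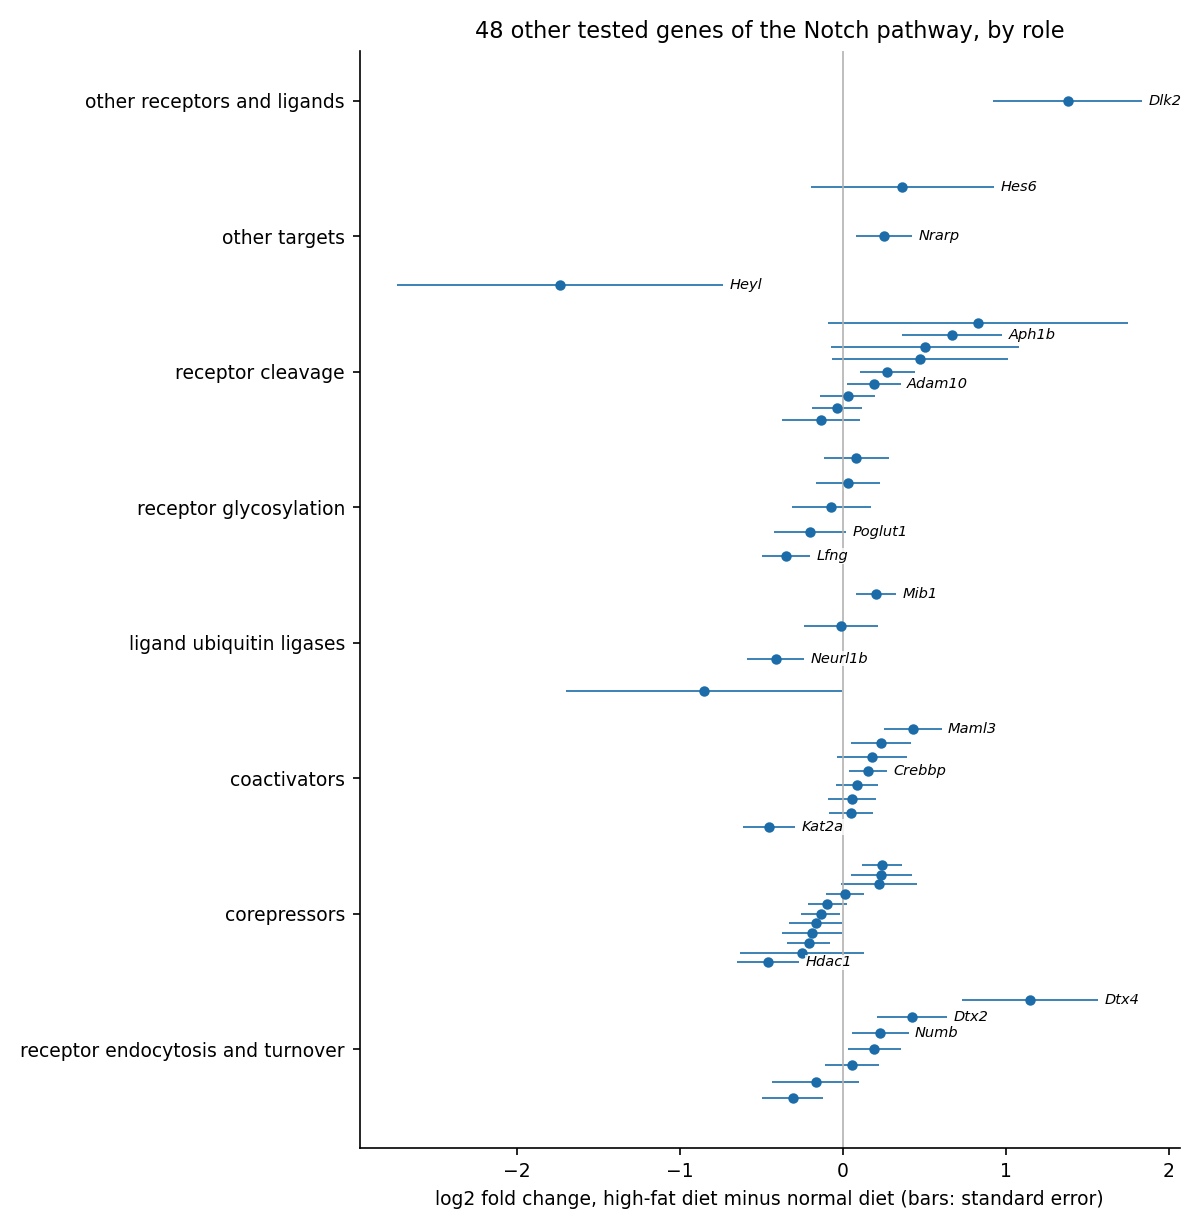
Log2 fold change, high-fat diet minus normal diet, of the 48 other tested pathway genes, grouped by role and sorted within a role. Points are edgeR estimates, bars are standard errors, and the other pathway genes with values in the text, except Aph1c, are named. Of the 48 points most lie within 0.5 of 0, and those farther out, such as Dlk2, Dtx4 and Heyl, have wide bars.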

How the data were processed

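RNA-seq was measured in 4 libraries of mouse hair follicle stem cells, grouped by the diet in each title. Per gene and library the authors deposited the raw count and FPKM. HISAT2 2.0.1, cutadapt 1.9.1 and bcl2fastq 2.17.1.14 are listed, without roles, in the submitters' processing notes. Counter, strand setting, annotation and build: not given in the sources used here. Of 55141 identifiers shared with GENCODE M21 (GRCm38), 54821 had the same position, so that build is named. All 221604 deposited FPKM values equalled the count over exonic size and total count within 0.0050.

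Counts were tested over the whole table in R 4.3.3 with edgeR 4.0.16 (quasi-likelihood, TMM, default filter by diet asking about 10 counts in 2 libraries and 15 in all, no covariates). P-values were adjusted by Benjamini-Hochberg over 14479 genes, with calls under 0.05. The standard error is the log2 fold change over the square root of F, and 95% intervals use the test's degrees of freedom. CPM are TMM-scaled, and FPKM are as deposited. DESeq2 1.42.0, limma 3.58.1 on log2(FPKM + 1) and log2(FPKM + 0.1), other filters and scalings, the replicate number as a block and dropping 1 library at a time were alternatives. A library left alone in its diet is taken to vary as the other diet's pair does, and the same genes were tested. The code was tested on simulated counts with known changes.

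Members and lists were chosen with earlier results of these data known. Named were all members, the 6 keratinocyte genes and, per role, called genes, the 2 with the smallest p and the highest in FPKM, and a few genes that this rule names are not reported here. Hes6, Aph1c, Notch4 and the other untested genes, Gm42819, Gm42820, Rbpj-ps3 and the marker genes were named after their values were seen.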

Additional observations from a re-analysis of the deposited data

How the results depend on the processing

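With 2 libraries per diet, calls depended on the processing. The count of called members, 0 in the report, was 1 (Notch3) on genes averaging at least 1 FPKM, with upper quartile scaling, with DESeq2 and at an adjusted p under 0.10, and 2 (Notch3 and Dll1) without a count filter. It was 0 with each library left out. No other pathway gene was called under any alternative. Over all genes the count of 195 (162 higher, 33 lower) was 633 (408 and 225) without a filter, among 24790 genes with a count. It was 268 (213 and 55) with the FPKM filter, 209 (180 and 29) with upper quartile scaling and 197 (132 and 65) with library totals. With equal sums of TPM it was 91 (88 and 3), with DESeq2 389 (274 and 115) and with limma at either pseudocount 2 (2 and 0). At an adjusted p under 0.10 it was 381 (280 and 101). Leaving out 1 library gave 0 to 83 calls (0 to 81 higher, 0 to 2 lower), fewest without the first normal diet library. The cause was not tested.

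Log2 fold changes near 0 changed sign. With library totals, equal sums of TPM, and limma with a pseudocount of 1 and 0.1, Notch1 had -0.045, -0.028, -0.046 and -0.047 and Jag2 -0.034, -0.019, -0.034 and -0.035. Trp63 had 0.0058 with the FPKM filter and 0.018 with upper quartile scaling. With 1 library left out the values ranged from -0.037 to 0.12 for Notch1, -0.58 to 0.13 for Rbpj, -3.30 to 0.77 for Heyl, -0.0014 to 0.41 for Adam10, -0.47 to 0.025 for Poglut1 and -0.043 to 0.029 for Trp63. Notch3, Dll1 and Hes1 kept their direction in all alternatives.

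The diets share replicate numbers, but nothing states that these pair the libraries, and the deviations of same-numbered libraries were not correlated (r = -0.0011 over 14479 genes). With a replicate block edgeR called 2 members, Notch3 (adjusted p = 0.0031) and Dll1 (0.012), and 419 genes (308 higher, 111 lower), Krt1 (1.50e-05) and Ivl (0.046) among them. Hey1 and Hey2, under 1 CPM in every library, did not pass the count filter at this depth.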

Other observations

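The neighbours of Notch3 were looked at after its value was seen. Within 250000 bases of it on chromosome 17, 7 other genes were tested and none was called (edgeR). The nearest on its upstream side, Ephx3, an epoxide hydrolase gene, was low and had 1.16 and 4.91 CPM on normal diet and 6.65 and 6.80 CPM on high-fat diet. Its log2 fold change of 1.15 (SE 0.62) did not pass (edgeR adjusted p = 0.465). As for Notch3, the first normal diet library was the lowest and the high-fat libraries were close to each other.

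Cspg4, a proteoglycan used as a marker of pericytes, stood at a mean of 41.0 FPKM, above every Notch receptor, in libraries where the pericyte gene Rgs5 stood at or below 0.48 FPKM. The diets overlapped, with a log2 fold change of -0.06 (edgeR adjusted p = 0.903).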
